A study of Canis lupus familiaris with 6 samples.

Results

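The 3 arrays described here follow MDCK-II cells that were never given tetracycline, taken 30, 45 and 60 h into the experiment. They are 3 of the 6 arrays of the series and were chosen by their labels alone, 1 array per time. The cells, called scribKD, are a dog kidney tubule epithelial line that carries a short hairpin RNA against scribble, a polarity scaffold protein, under a tetracycline switch. All cells of the series carry the switch and the hairpin construct, so the arm without tetracycline is the uninduced scribKD line and not a parental line. The sources used here do not say whether the line grew from 1 clone. Per the labels, 154000 cells were plated in each well of a 12-well plate in high glucose DMEM with 10% serum and 100 units/ml penicillin, and the treated wells received 5 µg/ml tetracycline 6 h after plating. The times count from that addition. Total RNA of 3 wells of a condition was mixed for each array, so that the wells cannot be told apart and there is no replicate array of any time. No p-value is therefore given, and every difference is between single arrays.

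MDCK cells plated below confluence divide until they cover the dish. They then slow their cycle and build a polarized sheet with an apical and a basolateral face, joined by tight junctions. Such a sheet carries tubule transporters and endocytic receptors, while mitogenic and wound-response genes are typically most active in cells that still spread and divide. The labels do not say how dense the cells were at each time.

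Of 43584 probes measured, 27579 were well above background on all 3 arrays and were considered. Levels are log2 signal less the 75th percentile of the same array, so that 0 is that percentile, and a difference of 1 is 2-fold. Between 64.3% and 68.8% of spots lay well above background on an array. A gene symbol was found for 5.70% of the probes considered, 984 genes in all, each represented by its brightest probe. Some of these genes have further probes that were not considered. The kidney epithelial markers CDH1, KRT19, CLDN2, ATP1B1, FXYD2, TJP1 and OCLN, 7 of 7 with a named probe, were above background at all 3 times. The others on that list have no named probe here. Fibroblast, leukocyte and endothelial lists had 4 of 5, 3 of 4 and 2 of 2 named members above background, the matrix proteoglycan DCN and the B cell gene MS4A1 being below it at all times. At 30 h the epithelial markers ran from -1.86 (OCLN) to 6.50 (KRT19), with CDH1 at 2.44. Of the markers of other cell types, VWF stood at 4.58, COL1A2 at 0.98 and THY1 at 0.07. The rest of those above background lay between -4.61 (CD8A) and -2.69 (KDR). None of these 9 genes of other cell types differed by 1.5-fold between any 2 times. SCRIB has no named probe, so leakage of the uninduced hairpin was not analysed here.

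Fewer probes separated the 30 and 45 h arrays than the 45 and 60 h arrays. From 30 to 45 h, 109 probes (0.395% of those considered) were at least 2-fold higher and 100 (0.363%) at least 2-fold lower. From 45 to 60 h the counts were 239 (0.867%) and 127 (0.46%). Over the whole span from 30 to 60 h, 763 probes (2.77%) were higher and 417 (1.51%) lower. The SD of the difference over all probes was 0.26, 0.32 and 0.46 for these spans, and the levels of the probes correlated at 0.996, 0.994 and 0.988. The first step lies within 1 slide and the second crosses to another slide, so from 45 to 60 h and from 30 to 60 h time and slide cannot be told apart without tetracycline. With tetracycline it is the second step that lies within a slide, while the first step and the span from 30 to 60 h cross slides. There 191 probes (0.702%) passed 2-fold in either direction from 30 to 45 h and 231 (0.848%) from 45 to 60 h, out of 27226 above background on all 6 arrays. On the same probes the counts without tetracycline were 174 (0.639%) and 331 (1.22%).

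Dim probes made up most of the early count. When the probes considered were divided at their median level, the brighter ones included 3 probes higher and 3 lower from 30 to 45 h, 29 and 35 from 45 to 60 h, and 195 and 180 from 30 to 60 h, of 13789. The dimmer probes were 97.1%, 82.5% and 68.2% of the probes past 2-fold. With normexp background correction the counts were 9 higher and 6 lower, 58 and 29, and 277 and 172. The excess of higher probes over the whole span, 64.7% of those past 2-fold, depended on the scaling, since it was 47.9% with arrays scaled by their median and 52.0% among the brighter probes. From 45 to 60 h the higher share was 65.3%, and 54.5% with median scaling.

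**Figure D1:**
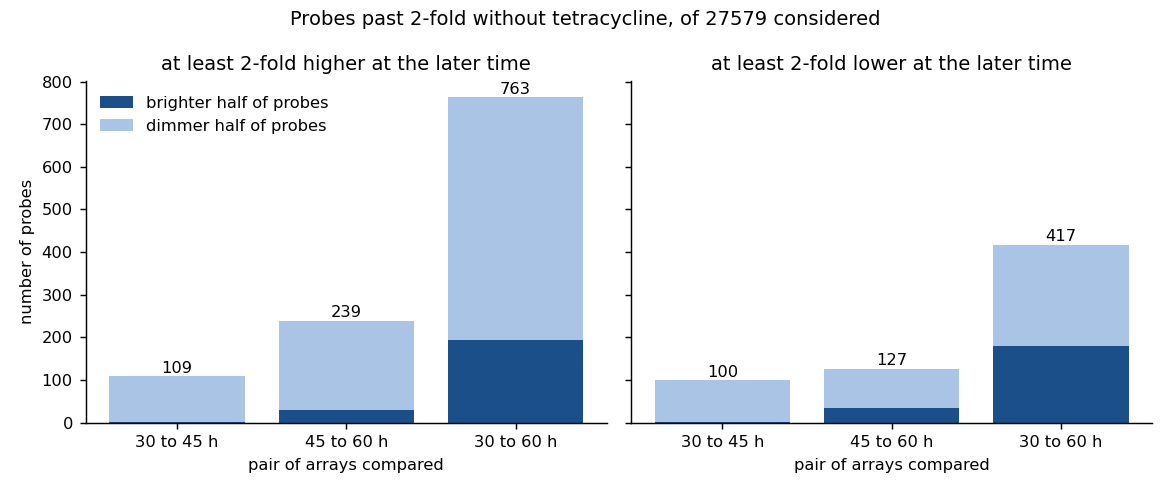
Number of probes at least 2-fold higher (left) or lower (right) at the later of 2 times without tetracycline, with probes above the median level in dark and those below it in light blue; each bar compares 2 single arrays. The early bars, 109 and 100, are almost wholly dim probes, while 195 of 763 and 180 of 417 are brighter probes over 30 to 60 h.

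The arrays with tetracycline share no array with this arm and show how far the same probes moved there. Of 732 probes (2.69%) past 2-fold higher from 30 to 60 h and above background on all 6 arrays, 84.4% were higher with tetracycline too, against 51.1% of all 27226 probes, and 28.8% were 2-fold higher there, against 2.22%. Of the 383 lower probes (1.41%), 75.7% were lower there, against 48.9% of all, and 14.9% were 2-fold lower, against 1.18%. From 45 to 60 h, where the tetracycline arrays lie on 1 slide, 79.9% of 214 higher probes (0.786%) and 78.6% of 117 lower probes (0.43%) had the same sign. The shares of all probes were 47.5% and 52.5%. In that step 16.8% and 5.98% were 2-fold in the same direction with tetracycline, against 0.588% and 0.261% of all. From 30 to 45 h the same-sign shares were 68.3% of 101 higher (0.371%) and 41.1% of 73 lower probes (0.268%), against 50.3% and 49.7% of all probes. There 7.92% and 2.74% were 2-fold in the same direction, against 0.386% and 0.316% of all. The difference across all 27226 probes correlated between the arms at 0.27 from 30 to 45 h, 0.40 from 45 to 60 h and 0.48 from 30 to 60 h. Probes are not independent replicates, and the slides are shared in part. From 30 to 60 h both arms cross slides, so time and slide cannot be told apart in either arm over that span.

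Within an array, repeat spots of a probe gave a step that varied by a median SD of 0.06 from 30 to 45 h and 0.04 from 45 to 60 h, over 26 probes with repeat spots. The largest SD was 0.22 and 0.44 in these steps. Where the brightest probe of a gene differed by at least 1.5-fold from 30 to 60 h, 77 of 80 other probes of the same genes had the same sign. With no limit on size it was 478 of 588 (81.3%). These values cover spot and probe error and not the spread between cultures.

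Among named genes 5 (0.508%) were at least 2-fold higher and 4 (0.407%) lower from 30 to 45 h, and 11 (1.12%) higher and 5 (0.508%) lower from 45 to 60 h. Over the whole span, 37 of 984 named genes (3.76%) were at least 2-fold higher at 60 h than at 30 h and 18 (1.83%) at least 2-fold lower. Brighter probes represent 11 of the higher genes and 10 of the lower ones, and 20 of them are given here. The 45 h level of each of these 21 genes lay between its 30 and 60 h levels. Choosing genes by a wide span from 30 to 60 h favours that order. Among dimmer genes past 2-fold it held for 23 of 26 higher and 7 of 8 lower ones. PCK1, CUBN, VNN1, ALPL, AMT and EIF4A1 fall outside the rule for named genes and were named after their values were seen.

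FXYD2, the gamma subunit of the sodium pump, stood at a log2 level of 1.29 at 30 h, 1.90 at 45 h and 3.09 at 60 h. That is 3.48-fold higher over the span, while with tetracycline it stood at 1.09, 0.96 and 1.14. PCK1, which encodes the gluconeogenic enzyme PEPCK, went through -1.47, -0.67 and 0.12, a 3.01-fold difference. It was higher on the 2 of its 3 probes considered. The fatty acid omega-hydroxylase CYP4A11 stood at 2.63, 3.50 and 4.14, 2.85-fold higher on its brightest probe. All 3 CYP4A11 probes were higher, but their mean difference was 0.98, just short of 2-fold. With tetracycline neither gene was 2-fold different from 30 to 60 h (0.29 for PCK1 and -0.28 for CYP4A11).

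CUBN, the cubilin receptor that takes up filtered protein in the proximal tubule, stood at -0.26, 0.20 and 1.05 (2.47-fold). CLDN2, a claudin that forms cation channels in leaky tubule junctions, went through -0.69, -0.22 and 0.54 (2.34-fold) with both probes higher. ALPL, the tissue-nonspecific alkaline phosphatase, was at -1.22, -0.90 and 0.01 (2.34-fold, on the 1 of its 4 probes considered). With tetracycline the 30 to 60 h difference was 0.68 for CUBN, -0.47 for CLDN2 and -0.02 for ALPL, so that for CLDN2 and ALPL the 60 h level was above the 30 h level in the uninduced arm alone. The pantetheinase VNN1 stood at -1.38, -0.99 and -0.09 (2.45-fold, higher on the 3 of its 4 probes considered).

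The aldolase ALDOC, a glycolytic enzyme, stood at 1.63, 2.07 and 3.08, 2.73-fold higher with all 3 probes in that direction. ADM, which encodes the vasodilator peptide adrenomedullin, was at 2.11, 2.47 and 3.44 (2.51-fold). ALDOC, ADM and VNN1 are the 3 of these 11 genes that were also 2-fold higher with tetracycline (1.03, 1.19 and 1.03). The lysosomal protease CTSS stood at -0.36, 0.14 and 0.83 (2.28-fold). AMT, the aminomethyltransferase of the glycine cleavage system, was at -0.59, -0.10 and 0.54 (2.19-fold), and the mean of its probes differed by 0.71.

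**Figure D2:**
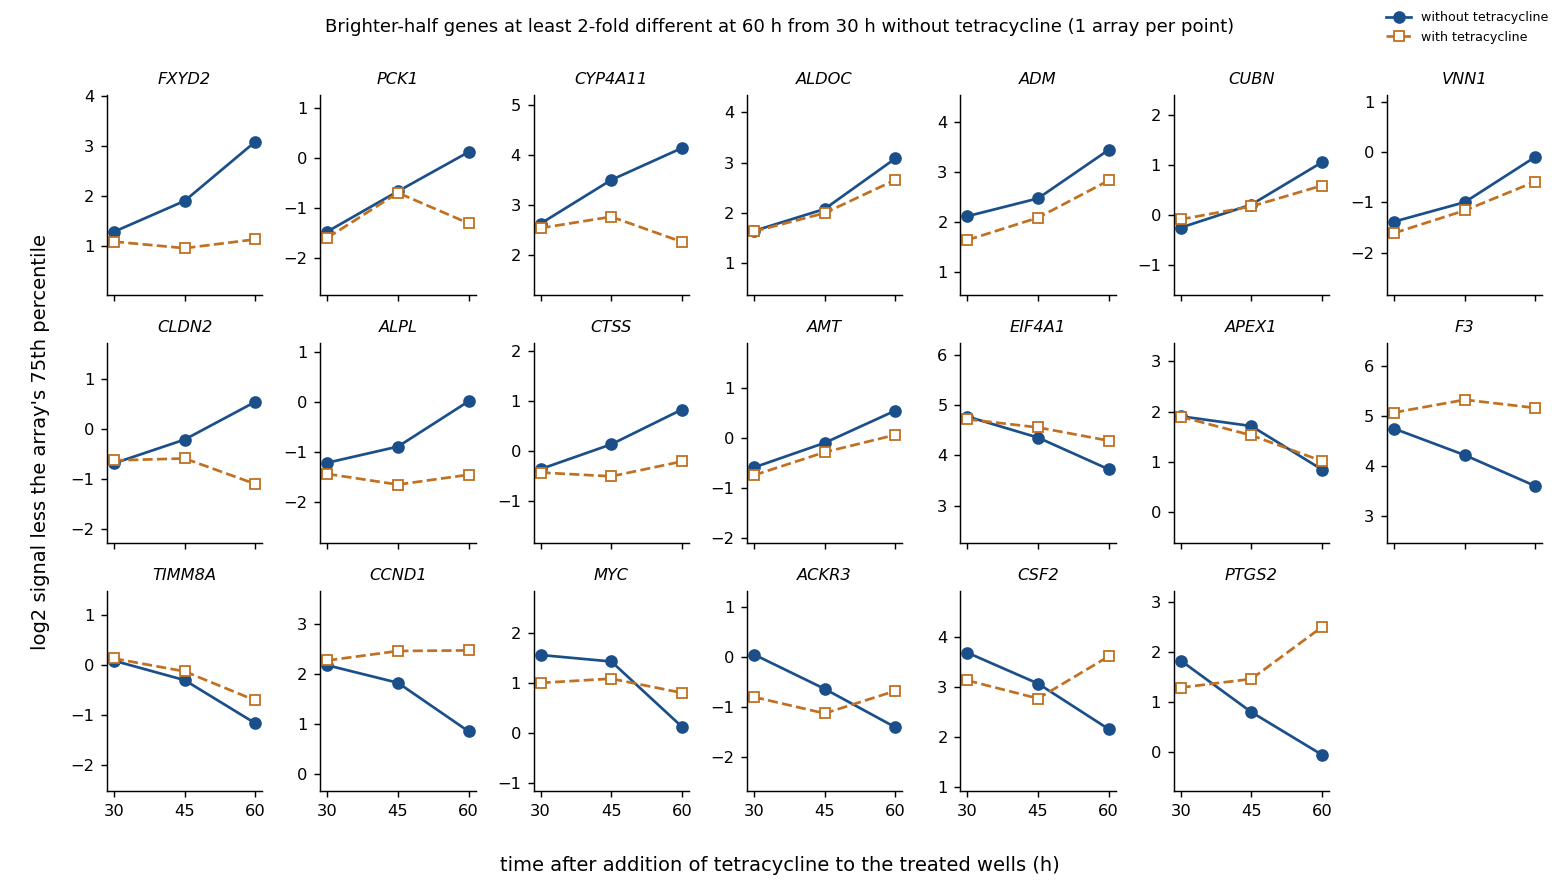
Level (log2 signal less the array's 75th percentile) against time for 20 named genes with brighter probes that differ at least 2-fold between 30 and 60 h without tetracycline, 1 array per point; filled circles are without and open squares with tetracycline, and every panel spans 4 log2 units. FXYD2 climbs from 1.29 to 3.09 without tetracycline and stays near 1 with it, whereas ALDOC, ADM, APEX1 and TIMM8A run in the same direction in both arms.

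Among the 10 lower genes, PTGS2 differed most. This gene encodes the inducible prostaglandin synthase COX-2 and stood at 1.82 at 30 h, 0.79 at 45 h and -0.06 at 60 h, 3.69-fold lower over the span. The growth factor CSF2, known as GM-CSF, went through 3.68, 3.06 and 2.16 (2.88-fold lower on its brightest probe, both probes lower). Both genes were lower in each step without tetracycline, and both were higher at 60 h than at 30 h with it, by 1.21 and 0.48.

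ACKR3, a scavenging receptor for the chemokine CXCL12, stood at 0.05, -0.64 and -1.40 (2.74-fold lower). F3, tissue factor, which starts coagulation, was at 4.75, 4.22 and 3.60 (2.22-fold lower). With tetracycline their differences were 0.12 and 0.09.

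For the growth regulators MYC and CCND1 the 60 h array lay farthest from the rest. MYC, a transcription factor that drives growth, was at 1.56 and 1.43 at 30 and 45 h and at 0.13 at 60 h, 2.47-fold lower in the second step alone. CCND1, cyclin D1, which carries cells through G1, was at 2.17, 1.82 and 0.85 (2.50-fold lower over the span). With tetracycline MYC differed by -0.20 and CCND1 by 0.20 from 30 to 60 h.

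TIMM8A, a chaperone of mitochondrial import, stood at 0.09, -0.30 and -1.16 (2.38-fold lower). The base excision repair nuclease APEX1 was at 1.90, 1.71 and 0.84 (2.09-fold lower), and the translation initiation helicase EIF4A1 at 4.78, 4.36 and 3.72 (2.08-fold lower, and 0.95 on the log2 scale, under 2-fold, with quantile normalization). These are 3 of the 4 lower genes that were lower with tetracycline too, by -0.84, -0.88 and -0.43. MYC is the fourth, and none of the 10 was 2-fold lower there.

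Of 34 dimmer named genes past 2-fold over the span, 26 were higher and 8 lower, and 10 stayed past 2-fold with normexp, all of them higher genes. TNNI3, cardiac troponin I, differed most, at -2.37, -1.24 and 0.40, 6.78-fold higher with both probes higher. PDE6B, a subunit of the photoreceptor phosphodiesterase, stood at -5.10, -4.75 and -2.45 (6.27-fold), nearly all of it between 45 and 60 h. Only 1 of its 3 probes was considered. The antizyme OAZ3 was at -4.38, -3.46 and -1.93 (5.46-fold). All 3 were higher with tetracycline as well, by 1.25, 1.58 and 1.87.

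CAPS, calcyphosine, a calcium-binding protein, stood at -2.60, -1.82 and -0.26 (5.07-fold higher) against a difference of 0.09 with tetracycline. GATM, the first enzyme of creatine synthesis, was at -3.61, -2.73 and -1.65 (3.89-fold, higher on the 2 of its 4 probes considered). DHDH, dihydrodiol dehydrogenase, was 3.76-fold higher at 60 h (-0.36) than at 30 h (-2.27), and the lipoprotein receptor VLDLR 3.57-fold higher with both probes, at -1.13 and -0.16 at 45 and 60 h. With tetracycline these 3 differed by 0.27, 0.07 and 0.73. FHIT, a diadenosine triphosphate hydrolase, was 3.42-fold higher and the organic cation transporter SLC22A2 3.18-fold higher, and both were 2-fold higher with tetracycline (1.40 and 1.23). BDH2, named after its values were seen, was 2.49-fold higher.

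The 8 lower dim genes were all under 2-fold with normexp. CDC25A, the phosphatase that opens S phase, stood at -3.31, -4.12 and -5.03 (3.29-fold lower, and -0.58 with normexp). SNAI2, a repressor of E-cadherin, was at -2.49, -3.01 and -3.56 (a difference of -1.07, and -0.61 with normexp). KMO, an enzyme of tryptophan breakdown, was 2.58-fold lower. RET, a receptor tyrosine kinase of kidney development, was 2.52-fold lower on the 1 of its 4 probes considered. Its level was high on the 30 h array alone (-3.14, -4.72 and -4.47), and with tetracycline it stood at -4.71, -4.65 and -4.51. The calcium-binding protein CABYR was 2.25-fold lower, and lower with tetracycline too (-1.63). DLA-DOA, a class II histocompatibility gene, was 2.02-fold lower on its brightest probe, while its other probe had the opposite sign. ADGRE5 (2.15-fold) and IFNK (2.02-fold) were named after their values were seen.

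The largest single steps among named genes belonged to dim probes that were high on 1 array. EDA, a ligand of the TNF family needed for skin appendages, stood at -5.39 and -5.54 at 30 and 60 h but at -2.62 at 45 h. MYH3, embryonic myosin heavy chain, was at -4.98, -2.12 and -3.90. Both steps from 30 to 45 h stayed past 2-fold with normexp (1.07 and 1.37), and with tetracycline they were 0.41 and 0.06. The chemokine CCL4 (-4.75, -3.78 and -5.28) and the perforin gene PRF1 (-4.24, -3.22 and -3.77) were also highest at 45 h. The bile salt pump ABCB11 (-3.38, -5.06 and -3.90) and the reticulon RTN1 (-4.34, -5.71 and -5.29) were lowest there. All 6 have dim probes, and with normexp the early differences of PRF1 (0.46), ABCB11 (-0.53) and RTN1 (-0.34) were under 2-fold. That of CCL4 was 0.97, and 0.34 with normexp. Among the 24 genes named for the step from 30 to 45 h, PTGS2 and CYP4A11 are the only ones with brighter probes.

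The chosen gene lists were compared by the share of members at least 1.5-fold different from 30 to 60 h, against 8.74% higher and 7.83% lower among all 984 named genes, whose median was 0.01. Of 33 lists 29 had 3 or more members considered. Their medians ran from -0.98 to 0.61. For 10 lists the sign of the median turned with the scaling of the arrays, so no direction is given for them, though their members are described.

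Of 17 NF-kappaB and inflammation genes, 5 were at least 1.5-fold lower and 1 higher, with a list median of -0.37. Besides PTGS2, CSF2 and ACKR3 the lower ones were the adhesion molecule ICAM1 (-0.93, both probes lower) and the chemokine CX3CL1 (-0.59). The higher one was CCL5 (0.64), a chemokine of lymphocytes. CX3CL1 and CCL5 were named after their values were seen. The list median with tetracycline was 0.00. Of 9 genes on the list of matrix proteases and inhibitors 4 were lower and 0 higher. The lower ones included the coagulation starter F3, the urokinase PLAU (-0.93) and the metalloproteinase inhibitor TIMP3 (-0.67). MMP9, a gelatinase, dipped at 45 h (-1.30, -2.28 and -1.41, both probes considered). The median was -0.11, and 0.03 over members with brighter probes. PLAU was higher with tetracycline, by 1.84.

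The cell cycle and nucleolar lists had few named members. Of 4 G2/M genes, 2 were lower by 1.5-fold, the ubiquitin-conjugating enzyme UBE2S (-0.76) and the kinetochore gene CENPS (-0.80), while cyclin B2, CCNB2 (0.07), and survivin, BIRC5 (-0.07), were nearly level. TYMS, which makes thymidylate for DNA synthesis, was the 1 S phase gene, at 5.04, 4.85 and 4.61. Of 2 cycle inhibitors 1 was higher by 1.5-fold, CDKN2B at 1.77, 1.91 and 2.74, while CDKN1B, at -1.79, -1.46 and -1.23, differed by 0.57. Of 3 genes on the list of ribosome biogenesis and the nucleolus 2 were lower by 1.5-fold. These were the transcription factor MYC and treacle, TCOF1, of ribosomal RNA synthesis (-0.98, a dim probe). Nucleophosmin NPM1 differed by -0.45 on its brightest of 3 probes. With tetracycline CENPS (-0.75), UBE2S (-0.72), TCOF1 (-0.89) and TYMS (-0.50) differed by nearly the same amounts, but CDKN2B by -0.61.

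Of 7 mitochondrial genes 3 were lower by 1.5-fold: TIMM8A, the prohibitin PHB (-0.77, all 3 probes lower) and cytochrome c, CYCS (6.74, 6.53 and 5.98). The creatine kinase CKMT2, a dim probe, was higher by 0.84. The 7 genes on the DNA repair list went both ways. The diadenosine triphosphate hydrolase FHIT was higher, the repair nuclease APEX1 lower and the rest within 1.5-fold. The list median, 0.26, was -0.36 over brighter members. Of 16 p53 and apoptosis genes 2 were lower, CYCS and the BCL2 family member PMAIP1 (0.66, 0.58 and -0.17), with a median of -0.14. None of the 19 ribosomal protein genes differed by 1.5-fold, the range being from -0.18 (RPL4) to 0.21 (RPLP0).

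Tubule transport genes split by gene. Of 16, 3 were higher by 1.5-fold and 1 lower. The higher ones were FXYD2, SLC22A2 and the potassium channel KCNJ16 (-2.98, -2.54 and -1.89), and the lower one was the drug efflux pump ABCB1 (-0.63). The sodium pump beta subunit ATP1B1 was level at 4.29, 4.31 and 4.37. With tetracycline KCNJ16 differed by 0.07 and ABCB1 by 2.32. Of 7 tight junction genes CLDN2 alone differed by 1.5-fold, whereas the scaffold TJP1 (-0.09) and occludin, OCLN (-0.03), were nearly level. Of 8 adherens, desmosome and keratin genes 1 was lower, the desmosomal cadherin DSG3 (-0.74), and E-cadherin, CDH1, was level at 2.44, 2.56 and 2.48, with 1 of its 3 probes of the opposite sign. DSG3 was higher with tetracycline, by 1.71.

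Of 10 hypoxia and glycolysis genes 3 were higher by 1.5-fold, ADM, ALDOC and the carbonic anhydrase CA9 (0.85, both probes higher). The haem oxygenase HMOX1 was lower (-0.70). The list median was 0.17. Of 16 lysosomal genes 5 were higher and 0 lower, with a median of 0.20: CTSS, the protease CTSK (0.65), the peptidase TPP1 (0.64) and the cholesterol carriers NPC1 and NPC2 (0.61 each, both probes of each higher). NPC2 differed by -0.18 with tetracycline and NPC1 by 0.66. NPC1 and NPC2 are also 2 of the 3 members of the cholesterol and fatty acid list, whose median, 0.61, is the highest of the 29 lists.

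The immunoproteasome subunit PSMB8 (0.16, 0.58 and 1.07) was the 1 of 10 interferon-stimulated genes past 1.5-fold from 30 to 60 h. From 30 to 45 h 0 of the 10 passed 1.5-fold, with a median of 0.26, and the antiviral gene MX1 differed by 0.52. Of 7 mesenchymal transition genes 1 was lower by 1.5-fold, SNAI2 (-1.07), and 0 were higher, with a median of -0.20. The integrin ITGB3 differed by -0.51 and MMP9 by -0.11. None of 16 Rab and traffic genes passed 1.5-fold (median -0.16).

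BMP7, a kidney morphogen, was lower by -0.81 on the brightest of 3 probes, all lower, among 6 TGF-beta, BMP and WNT genes (median -0.17). The receptor FGFR2 stood at 4.05, 4.47 and 4.89, higher by 0.85 with both probes, among 8 growth factor genes, and differed by -1.25 with tetracycline. The collagen COL7A1 was higher (0.66) among 7 matrix genes. Of 12 NRF2 genes the thioredoxin reductase TXNRD1 (-0.88, all 4 probes lower) and HMOX1 were lower. Of 11 genes on the list of endoplasmic reticulum chaperones and the unfolded protein response, VLDLR, a cell-surface receptor, alone passed 1.5-fold, with the chaperones CANX (-0.58) and HSP90B1 (-0.57) just under it (median -0.09), and of 5 heat shock genes HSPA4 was lower (-0.62). MYC was the 1 of 3 immediate early genes past 1.5-fold. F3 and LATS1 (-0.20) were the YAP and TEAD genes measured.

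**Figure D3:**
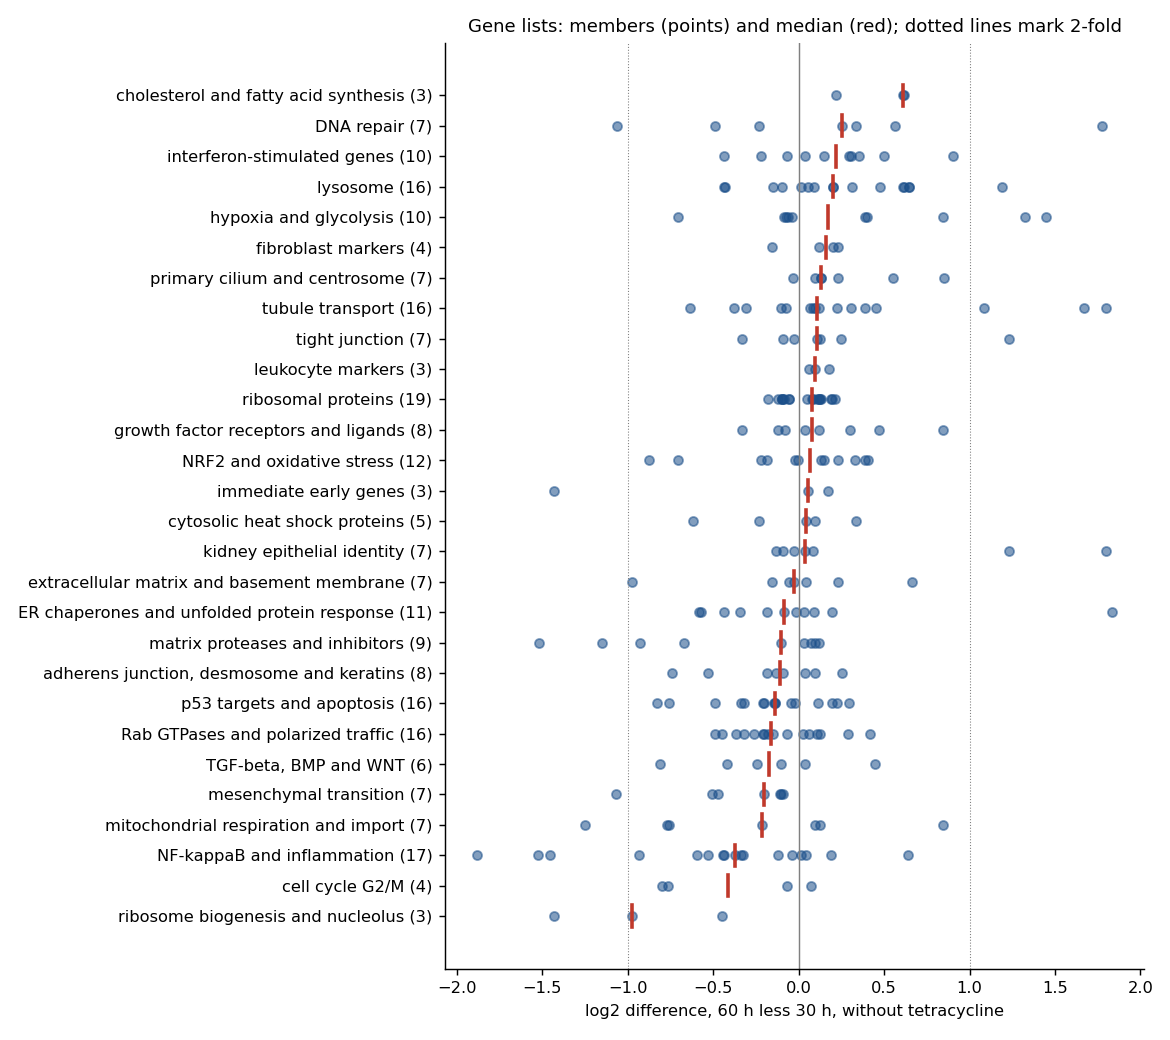
Each point is a list member's log2 difference, 60 h less 30 h without tetracycline, from 1 array per time, for 28 lists with 3 or more members considered; red bars are list medians, members considered are in brackets, and dotted lines mark 2-fold. The NF-kappaB list reaches from -1.88 (PTGS2) to 0.64 and the ribosomal protein list stays within 1.5-fold.

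A further 93 named genes were above background on 1 or 2 of the 3 arrays, where a dim array gives only a bound. The bound sets the bright level against the dimmest signal that counted as well above background on the dim array, or against the gene's own signal there if that was higher. From 30 to 60 h, 18 of them were at least 2-fold higher by that bound and 12 at least 2-fold lower. Detection that differs between arrays placed these genes in the set, so a difference between arrays is built into the choice. The share over all 3545 probes above background on 1 or 2 of the 3 arrays is not given here. The genes below were named after their values were seen. The bile acid transporter SLC10A2 was at least 4.60-fold higher at 60 h than at 30 h, with a measured 45 h level between (-4.32 and -3.03 at 45 and 60 h), and the Toll receptor adaptor TICAM2 at least 4.54-fold higher (-4.76 and -3.37). Hepatocyte growth factor, HGF, was at least 2.11-fold higher. The sphingosine phosphate receptor S1PR1 was lower at each time, at -4.36 and -5.30 and then not well above background, at least 3.01-fold lower over the span. With tetracycline S1PR1 was above background at all 3 times, at -4.97, -4.74 and -4.23, while SLC10A2 and HGF were above it at none. All of these genes have dim probes, and the bounds hold for the background-subtracted signal only. No normexp value is given for them here, while 10 of the 34 dimmer genes described above stayed past 2-fold with normexp.

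Several other bounds came from a single bright array. The bitter taste receptor TAS2R7 was at least 12.2-fold higher and the retinal calcium sensor RCVRN at least 9.62-fold higher at 60 h than at 30 h, yet neither was well above background at 30 or 45 h or on any array with tetracycline. In the other direction the testis lactate dehydrogenase LDHC and the flavin monooxygenase FMO1, the latter at least 5.67-fold lower, were above background on the 30 h array and on no other of the 6.

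Of the 55 named genes past 2-fold from 30 to 60 h without tetracycline, 40 had the same sign with it. With tetracycline 13 of the 55 were 2-fold in the same direction and 5 were 2-fold in the opposite direction. For comparison, probes past 2-fold over that span and above background on every array of both arms were counted alike. Of 732 higher probes, 211 were 2-fold in the same direction and 14 in the opposite direction. Of 383 lower probes, 57 and 18 were. Among the 55 named genes, 8 of 11 higher and 4 of 10 lower genes with brighter probes had the same sign. Over all brighter probes past 2-fold the counts were 170 of 195 higher (87.2%) and 155 of 180 lower (86.1%). Of all 13789 brighter probes, 46.9% were higher and 53.1% lower with tetracycline from 30 to 60 h. The same share over all named genes is not given here. No replicate allows a test of the difference between the arms' time courses, and none was made.

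**Figure D4:**
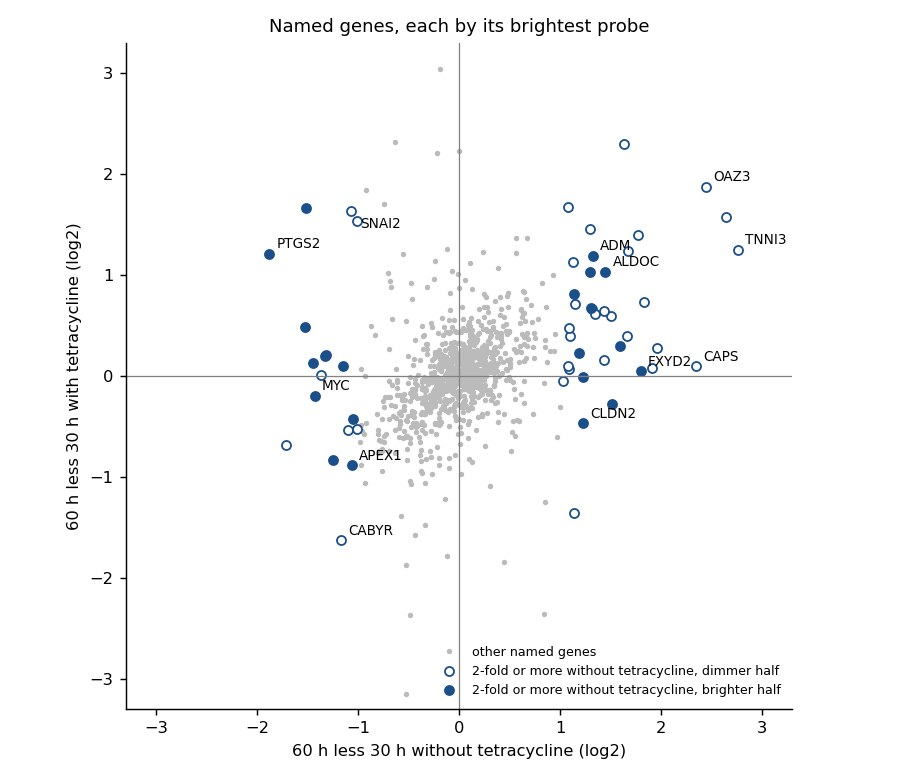
Difference from 30 to 60 h without (x axis) and with tetracycline (y axis) for 984 named genes, log2, 1 array per time and arm; filled circles are brighter and open circles dimmer genes past 2-fold without tetracycline, grey points the other genes. PTGS2 and SNAI2 lie at the upper left (lower without, higher with tetracycline), and OAZ3, TNNI3, ADM and ALDOC at the upper right.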

How the data were processed

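Total RNA was labelled with Cy3 and hybridised to 1-colour Agilent dog arrays. The scanner files deposited by the authors give an intensity per spot, linear, made with Feature Extraction 11.5.1.1 per the submitters' processing notes. It is background-subtracted and detrended, per the file headers, and arrays were not normalized to each other. In the authors' series matrix each intensity is the same signal multiplied by 1 factor per array, 2.30 to 2.62, whose origin the sources used here do not give.

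Control and outlier spots were left out, spots of a probe averaged on the log2 scale, and each array's 75th percentile subtracted; 0 spots were saturated and 19 probes were dropped. Of 43584 probes 2325 were given 1 symbol and 27 only a locus number by matching accessions to RefSeq genes (names only, from the UU_Cfam_GSD_1.0 assembly). None had several symbols, and the other 41232 are unnamed. Unnamed probes are counted only. The number of arrays limits the precision. Named genes are up to 12 in each direction for each step, 10 in each direction from 30 to 60 h with both steps of 1 sign, up to 4 members per list with the largest span, any member past 2-fold in a step, and all cell type markers; others are marked in the text. The members, lists and rule were chosen with earlier results of these data known. Alternatives were quantile and median scaling, the percentile over detected probes, the series matrix, normexp (limma 3.58.1 in R 4.3.3, offset 50), other detection filters, thresholds of 1.5- and 3-fold, and the mean of a gene's probes. Counting was tested on simulated data. Sequences were not analysed here, and some genes and 1 list are not reported here.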

Additional observations from a re-analysis of the deposited data

Results flagged for a closer look

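The difference from 30 to 60 h ran in opposite directions in the 2 arms, by at least 2-fold in each, for the following genes; with 1 array per time and arm the difference between the arms was not tested. PTGS2 was at -1.88 without tetracycline and 1.21 with it, and SNAI2 at -1.07 and 1.63. The keratinocyte interferon IFNK was at -1.02 and 1.53, and the olfactory receptor OR6AA6 at 1.14 and -1.36. SNAI2, IFNK and OR6AA6 have probes below the median level. Their differences without tetracycline were under 2-fold with normexp, at -0.61, -0.72 and 0.41. That of OR6AA6 was also under 2-fold with quantile normalization (0.99), and that of IFNK with the percentile over detected probes (-0.97).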

How the results depend on the processing

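No paired analysis was possible because each condition has 1 array and the labels carry no replicate numbers; leaving out an array would remove a time. Probe counts, higher and lower, for 30 to 45 h, 45 to 60 h and 30 to 60 h in turn, stayed within 1.5 times of the reported ones with quantile and median scaling, the percentile over detected probes, the series matrix and detection on all 6 arrays. They were 9 and 6, 58 and 29, and 277 and 172 with normexp on median spot signal, since the planned mean signal column is not used here. Probes above the median level gave 3 and 3, 29 and 35, and 195 and 180. Both settings were chosen after seeing the data. No detection filter gave 1180 and 934, 1760 and 1030, and 2390 and 1238, and detection on at least 1 array 795 and 484, 872 and 649, and 1666 and 843. A 1.5-fold threshold gave 544 and 344, 1112 and 695, and 2352 and 1929, and a 3-fold threshold 26 and 30, 46 and 28, and 187 and 64. Of 80 steps or spans of named genes past 2-fold, 0 changed sign under any setting; 39 stayed past 2-fold with normexp, 72 with quantile and 72 with median scaling, 77 with the percentile over detected probes and 76 with the mean of a gene's probes. From 30 to 60 h, 18 of 21 brighter and 10 of 34 dimmer genes stayed past it under every setting that could be computed for them.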
